A study of Solanum lycopersicum with 12 samples.

Results

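SBT2, sbt3 and sbt4a are 3 subtilisin-like proteases (subtilases) of tomato, Solanum lycopersicum. They were chosen by name, as the genes whose symbol in the array's annotation is SBT2, sbt3 or sbt4a, and they were grouped on values of these arrays in root and leaf, with and without cadmium (Cd), that were already known. Their own differences are therefore given with standard errors and without p-values. Each gene has 1 probe set, so the 3 genes are 3 of the 801 genes that the annotation names without ambiguity, and 3 of 10038 probe sets tested. Expression was measured on 12 single-channel Affymetrix arrays, 3 in each of 4 groups given by the titles: root-ck and leaf-ck, the controls, and root-Cd and leaf-Cd. Cultivar, plant age, Cd dose and length of exposure are not in the labels, and nothing says whether arrays of a group are separate plants, so the spread between them may be technical. The titles and source labels disagree for leaf-Cd: the source label of all 3 arrays reads as untreated leaf. They are called leaf Cd here after their titles, and the disagreement touches each leaf comparison.

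Subtilases are serine proteases that use an aspartate, a histidine and a serine in catalysis. In plants they form large families, and most are made as inactive precursors that lose a prodomain on the way to the apoplast, the space outside the plasma membrane. In tomato, sbt3 encodes an enzyme studied for its structure and for a part in the defence of leaves against chewing insects. Some of the P69 subtilases are pathogenesis-related proteins made in leaves under attack. In the RefSeq gene table of assembly SLM_r2.1, sbt3 and sbt4a lie at the 2 ends of a run of 6 sbt genes on the same chromosome, in the order sbt4a, sbt4c, sbt4d, sbt4b, sbt4e and sbt3. Another 4 genes, 1 of them a pseudogene, lie between them. SBT2 is on another chromosome. Only sbt4a and sbt3 of this run are named on the array. Whether the sbt4a probe set also detects transcripts of its 4 sbt4 neighbours was not tested.

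The tissue labels were checked first. Of 7 root markers, NRAMP1, PT2 and ext1 were at or below background on all 6 leaf arrays and above it on all 6 root arrays, and the iron-uptake regulator FER was above background on 6 root arrays and 1 leaf array. PT1 and AMT1-2 were above background in both organs, and FRO1 was higher in leaf. The 3 green-tissue markers, named genes with symbols starting with RBCS or CAB, were the light-harvesting genes CAB4, CAB5 and CAB6A. They were above background on all root arrays too. Their summed level (log2 of the sum of linear values) was 13.62 to 13.77 on leaf control arrays and 12.95 to 13.42 on leaf Cd arrays. It was 11.44 to 13.25 on root control arrays, highest on array 3, and 10.09 to 11.08 on root Cd arrays. Background is the highest of 23 negative control probe sets on an array, 3.13 to 3.57 on root arrays and 2.69 to 3.01 on leaf arrays. Array medians were 7.46 to 7.50 in root and 6.85 to 6.89 in leaf, so comparisons of the organs are given less the median and also as deposited. Leaf Cd 3 had the lowest array weight in limma, 0.155, against 0.518 to 8.12 on the other arrays.

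The 3 proteases had 3 different patterns. SBT2 was higher in leaf than in root with and without Cd, close to background in root, and 5.17-fold lower in leaf with Cd. The level of sbt3 was high in both organs, 2.43-fold lower with Cd in leaf and 1.30-fold higher with Cd in root. For sbt4a, leaf values were high with and without Cd, and 5 of 6 root values were at background.

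**Figure D1:**
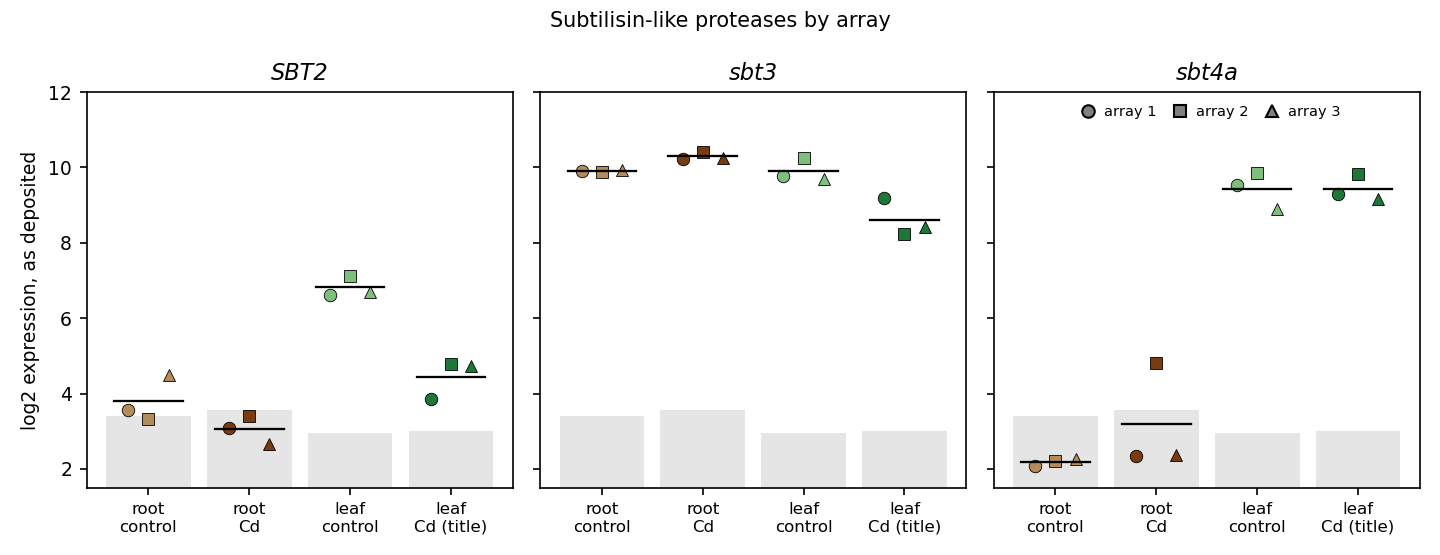
Log2 expression (vertical axis, as deposited) of SBT2, sbt3 and sbt4a on each array, by group (horizontal axis), with marker shapes for the array number in the titles, a black line at the group mean and grey boxes up to the highest background level in the group. SBT2 is separated between leaf control and leaf Cd, sbt3 is above 8 on every array, and sbt4a is above background in root on array 2 with Cd alone.

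SBT2 measured 6.62, 7.13 and 6.71 on the 3 leaf control arrays. On the leaf Cd arrays it measured 3.84, 4.78 and 4.72. All 3 Cd values lay below all 3 control values, with 1.84 log2 units between the nearest pair, and all 6 were above background. The group means were 6.82 ± 0.27 and 4.45 ± 0.53 (SD, n = 3 arrays each), a log2 difference of -2.37 with a standard error (SE) of 0.34 from the limma fit. This was the 31st lowest difference of the 10038 probe sets in leaf. Leaving out 1 leaf array at a time gave differences between -2.54 and -2.07, with -2.51 without leaf Cd 3. Between arrays of the same number, Cd minus control was -2.78, -2.35 and -1.98. Since the groups did not overlap, any pairing of the arrays gives negative values. The summed level of the green-tissue markers was also lower on all 3 leaf Cd arrays than on the controls, and leaf Cd 1, where SBT2 was lowest, had the lowest sum among leaf arrays. Their part in the SBT2 difference was not tested. In a whole leaf, fewer cells of a type and less RNA per cell cannot be told apart.

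In root, SBT2 stood close to background. Control values were 3.56, 3.31 and 4.49, of which 2 were above background, and Cd values were 3.08, 3.40 and 2.67, of which 1 was. The groups overlapped, and their means of 3.79 ± 0.62 and 3.05 ± 0.37 differed by -0.74 (SE 0.34). The size rested on root control 3: without that array the difference was -0.39. Root control 3 also had the highest green-marker sum of the root arrays, 13.25, against 11.44 and 12.18 on the other root controls, and the part of green tissue in this value was not tested.

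The sbt3 values in leaf were 9.77, 10.24 and 9.68 without Cd. With Cd they were 9.19, 8.23 and 8.43. The groups did not overlap, although only 0.49 log2 units separated the lowest control from the highest Cd value. Means were 9.90 ± 0.30 and 8.62 ± 0.51, a difference of -1.28 (SE 0.23), the 214th lowest of all probe sets. Without leaf Cd 1 it was -1.57, without leaf Cd 2 it was -1.09, and without leaf Cd 3 it was -1.19. Pairs of the same number differed by -0.58, -2.01 and -1.26. The order of the Cd arrays was not the one seen for SBT2: leaf Cd 1 had the lowest SBT2 value of the 3 and the highest sbt3 value.

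In root the sbt3 values were 9.91, 9.89 and 9.94 without Cd and 10.23, 10.41 and 10.24 with it. The control arrays lay within 0.05 of each other, and all Cd values were above them. The means were 9.91 ± 0.03 and 10.29 ± 0.10, a difference of 0.38 (SE 0.23, which rests on the spread in all 4 groups and is wider than the root arrays' own). Leaving out any 1 root array gave 0.32 to 0.41. From the highest, it ranked 1169th of the 10038 differences in root. The leaf difference minus the root difference was -1.66 (SE 0.32), and -1.95 to -1.47 when single arrays were left out.

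Levels without overlap are common on these arrays, so the members' counts are read beside the share of all probe sets. In leaf, SBT2 and sbt3 (2 of 3) were lower with Cd without overlap, as were 7.86% of all probe sets. In root, sbt3 and sbt4a (2 of 3) were higher with Cd without overlap, as were 13.5%, but 5 of the 6 sbt4a values were at background, where order has no meaning. Only sbt3 was higher in root and lower in leaf, each without overlap, a combination found in 70 probe sets, or 0.697%. These counts describe genes that were grouped with such values known, and nothing is drawn from them.

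**Figure D2:**
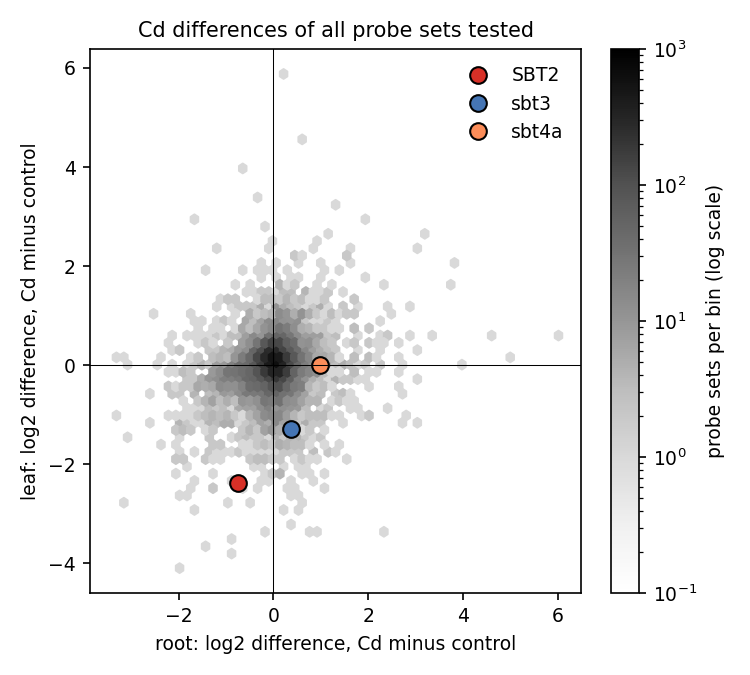
Log2 difference between Cd and control in root (horizontal axis) and in leaf (vertical axis) for the 10038 probe sets, shaded by their number per bin on a log scale, with the 3 members as coloured points. SBT2 lies at -0.74 and -2.37, sbt3 at 0.38 and -1.28, and sbt4a at 0.99 and 0.00.

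The sbt4a values in leaf were 9.54, 9.85 and 8.90 in controls and 9.30, 9.81 and 9.17 with Cd. The groups overlapped fully, with the Cd range inside the control range. Means were 9.43 ± 0.49 and 9.43 ± 0.34, a difference of 0.00 (SE 0.55), and leaving out single arrays gave -0.27 to 0.21.

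In root, sbt4a was at background on all 3 control arrays, at 2.08, 2.21 and 2.27. With Cd it read 2.36 and 2.37 on arrays 1 and 3, also at background, and 4.81 on array 2. The mean difference of 0.99 (SE 0.55) came from that array: without root Cd 2 it was 0.18. No fold is given, since the Cd mean was below the background level. Root Cd 2 stood apart for other probe sets as well. Of the 859 probe sets at background on the other 5 root arrays, 10 were more than 1 log2 unit above background on root Cd 2, sbt4a among them, against 0 to 2 on each other root array. Its green-marker sum, 11.07, lay within the range of the other root arrays, and P69A, a leaf transcript on these arrays, was at background on it. P69B and pip1, whose means were higher in leaf controls than in root controls, had their highest root values on it, 6.75 and 7.69. ARPI and LAPA1, whose leaf control means were also higher, read 2.63, at background, and 4.49, below the 4.53 of root control 1. By limma, ARPI passed between organs (adjusted p = 0.00216), and P69B, pip1 and LAPA1 did not (0.0517, 0.0593 and 0.0674). Root control 3, with more of the green markers than any other root array, had sbt4a at background. P69B, pip1, ARPI and LAPA1 are not among the green-tissue markers. The part of leaf material in the values of root Cd 2 was not tested.

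Without Cd the 3 genes differed in their balance between organs. The sbt4a level in leaf controls was at least 69.5-fold above root controls as deposited, and at least 104.6-fold less array medians, both computed from the root background level. SBT2 was 12.3-fold higher in leaf controls less array medians (log2 difference root minus leaf -3.62, SE 0.35) and 8.16-fold higher as deposited, with 2 of 3 root control values above background. Both were higher in leaf without overlap as deposited, as were 11% of all probe sets. For sbt3 the sign depended on the scaling: root minus leaf was -0.57 (SE 0.23) less array medians, without overlap, and 0.016 as deposited, with overlapping groups.

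With Cd, sbt3 was higher in root than in leaf on either scale, by 1.06 less array medians and by 1.68 as deposited. With Cd, SBT2 and sbt4a means were higher in leaf than in root, and the nearest SBT2 values were 3.40 in root and 3.84 in leaf. Each was above background on 1 of 3 root Cd arrays, and both root Cd means were below background, so no fold is given.

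The other subtilase list, matched by symbol, held SBT1, P69A, P69B and TMP. TMP was matched by its symbol alone and was at background on all 12 arrays. With Cd, 0 of the 4 genes passed an adjusted p of 0.05 in root, where limma called 3.03% of all probe sets, and 0 of 4 passed in leaf, where it called 3.78%. At an unadjusted p under 0.05 the counts were 0 in root, against 17.4% of all probe sets, and 1, P69B, in leaf, against 19.2%. The difference of the Cd differences between organs passed for 0 of 4, against 0.757% of all probe sets, and at an unadjusted p under 0.05 also for 0, against 15.3%. The median Cd difference over the 4 genes was 0.20 in root and 0.15 in leaf, against 0.02 over all probe sets in both. P69A and P69B belong to a family of near-identical neighbours, so their probe sets may share signal.

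**Figure D3:**
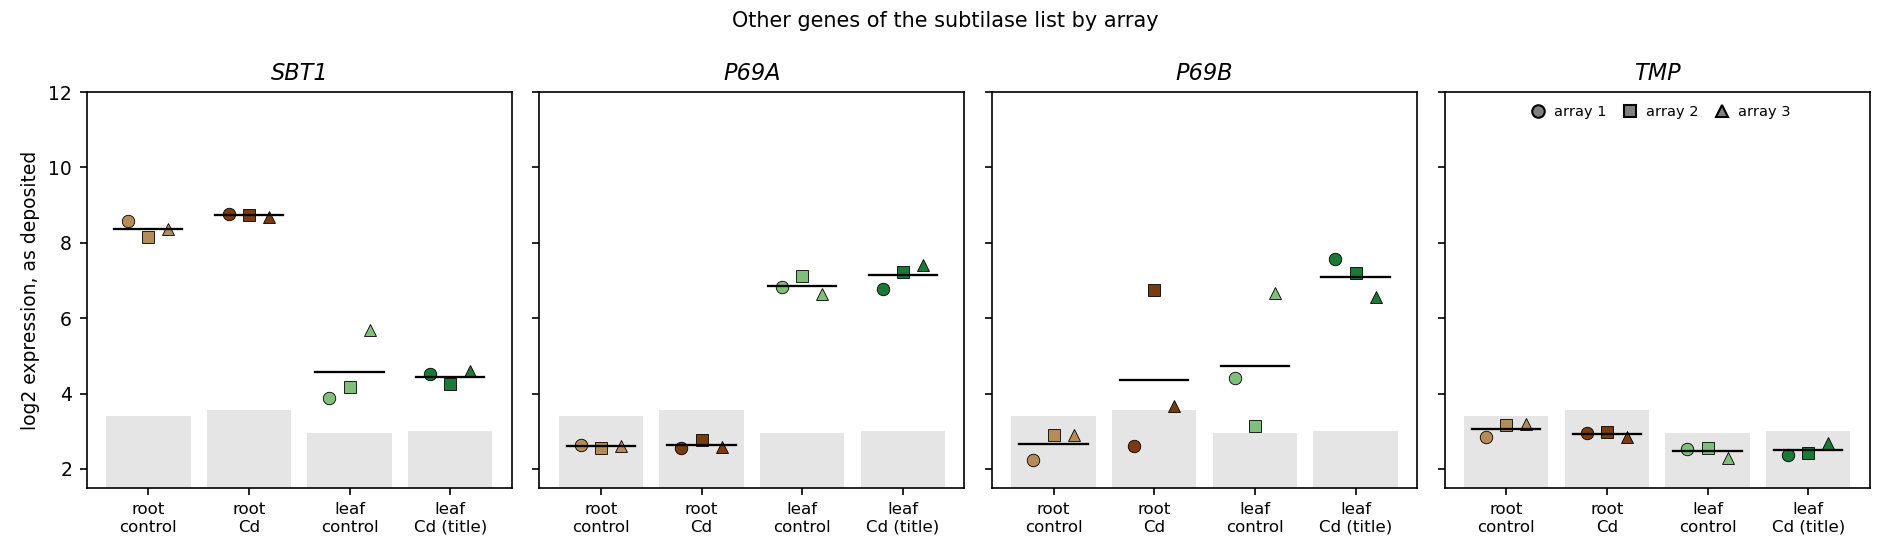
Log2 expression (vertical axis, as deposited) of SBT1, P69A, P69B and TMP by group and array, drawn as for the 3 members, with the mean as a black line and background as grey boxes. SBT1 is high in root, P69A is above background in leaf only, P69B spreads widely between arrays, and TMP stays within the background boxes.

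SBT1 had the organ pattern opposite to SBT2 and sbt4a. Its root values were 8.16 to 8.58 without and 8.69 to 8.76 with Cd, and its leaf values 3.87 to 5.68 and 4.25 to 4.60. Root minus leaf without Cd was 3.20 less array medians (limma adjusted p = 6.01e-05) and 3.79 as deposited. In root, SBT1 was higher with Cd without overlap, as were sbt3 and 13.5% of all probe sets. The Cd difference was 0.36 in root (SE 0.37, adjusted p = 0.731) and -0.13 in leaf (SE 0.37, adjusted p = 0.900). The sign in leaf turned with 1 array, to 0.43 without leaf control 3.

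P69A resembled sbt4a, with background values on all 6 root arrays and 6.64 to 7.40 on leaf arrays. Root minus leaf without Cd was at least 11.7-fold in favour of leaf as deposited (limma adjusted p = 7.91e-09 less array medians). With Cd in leaf P69A differed by 0.27 (SE 0.17, adjusted p = 0.442). Between organs without Cd, SBT1 and P69A (2 of 4) passed, where 43.3% of all probe sets did.

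P69B, the pathogenesis-related member that a Phytophthora inhibitor targets, varied most between arrays of a group. Leaf values were 4.41, 3.15 and 6.66 without and 7.56, 7.19 and 6.56 with Cd. The groups overlapped, and the difference of 2.36 (SE 1.01) did not pass (adjusted p = 0.230; 0.126 to 0.568 over the alternatives). It was 1.57 without leaf control 2 and 3.32 without leaf control 3. In root, P69B was at background on the 3 control arrays and read 2.62, 6.75 and 3.68 with Cd. The highest value was again on root Cd 2, the array on which sbt4a stood out, and without that array the root difference of 1.68 (adjusted p = 0.462) was 0.47.

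**Figure D4:**
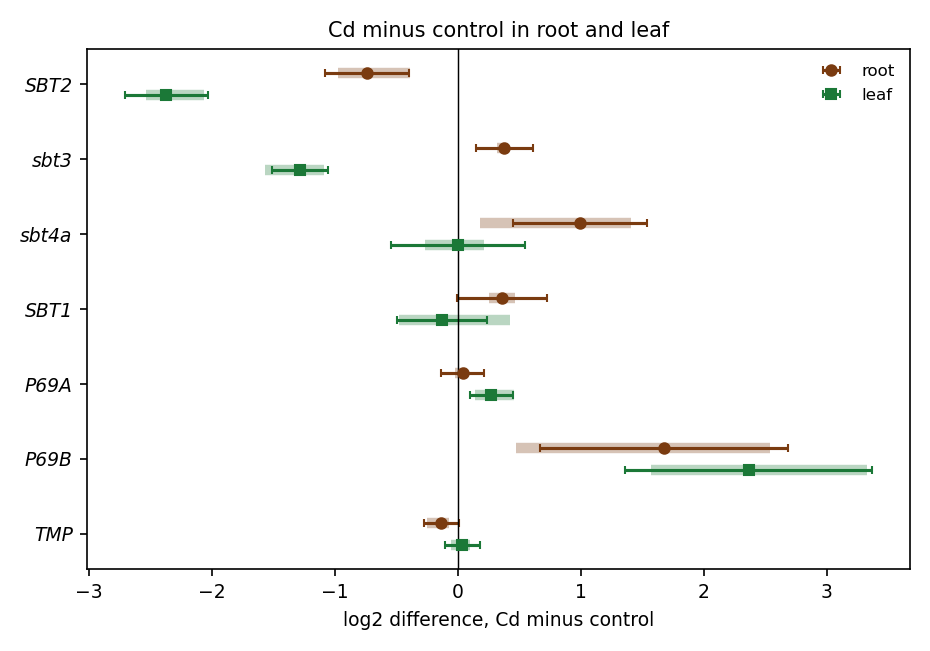
Log2 difference between Cd and control (horizontal axis) in root (brown circles) and leaf (green squares) for the 3 members and the 4 other listed subtilases, with bars for the SE of the fit and pale bands for the range when single arrays of the organ are left out. SBT2 and sbt3 are the points left of -1 in leaf, and the bands of sbt4a and P69B in root show their dependence on 1 array.

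Other proteases were counted to set the subtilases beside the rest of the proteolytic system. The list, matched by symbol or synonym, held 8 genes. They included the leucine aminopeptidases LAPA1 and LAPA2, the cysteine protease CYP1 (tdi-65), the vacuolar processing enzyme VPE5, the metacaspase MCA1 and the Clp protease subunit CLPP2. It also held pip1, matched by its full symbol, and ALPHA-DOX2, matched only because its name starts with the letters ALP. The name ALPHA-DOX2 is that of an alpha-dioxygenase, and the gene stays in the counts below. In root and in leaf, 0 of 8 passed by limma, where 3.03% and 3.78% of all probe sets did. At an unadjusted p under 0.05 the counts were 1 of 8 in root, against 17.4% of all probe sets, and 0 of 8 in leaf, against 19.2%. The list's median Cd difference was 0.04 in root and 0.06 in leaf. The gene farthest from 0 was pip1. It read 3.04, 2.65 and 2.97 in root controls, all at background, and 3.82, 7.69 and 5.79 with Cd. The difference was 2.88 (adjusted p = 0.242). The highest value was on root Cd 2, without which the difference was 1.92. ALPHA-DOX2 (-0.42, adjusted p = 0.425) and CLPP2 (-0.14, adjusted p = 0.708) came next in root. In leaf LAPA1 (0.73, adjusted p = 0.714) and VPE5 (0.31, adjusted p = 0.272) came next after pip1 (1.17, adjusted p = 0.660). Without leaf control 2 the leaf difference was -0.22 for pip1 and 0.04 for LAPA1, and LAPA1 was 1.94 without leaf control 1 and pip1 2.0 without leaf control 3.

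Proteinase inhibitors, which plants make against proteases of insects and microbes, formed a list of 7. TPI matched by letters, and its product is not described in the tables used. By limma, 0 of the 7 passed in root and 0 in leaf, against the same 3.03% and 3.78%. At an unadjusted p under 0.05 there was 1 of 7 in each organ, against 17.4% and 19.2% of all probe sets. The median Cd difference was 0.11 in root and -0.50 in leaf. In leaf the largest difference was that of LOC543954 (synonym PIIF), with 7.19, 5.28 and 3.02 in controls and 2.70, 2.38 and 3.43 with Cd (-2.33, adjusted p = 0.188). CEVI57 followed at -1.91 (adjusted p = 0.650) and ARPI at -1.12 (adjusted p = 0.559). Leaf control values of CEVI57 ran from 6.37 to 11.94 and those of ARPI from 4.31 to 8.92, wider than these differences. The sign of both turned with 1 array: CEVI57 was 0.13 without leaf Cd 2, and ARPI was 0.17 without leaf control 1. LOC543954 in leaf lay between -3.40 and -1.32 when single leaf arrays were left out, the latter without leaf control 1. In root CEVI57 differed by 1.62 (adjusted p = 0.770), LOC543954 by -0.81 (adjusted p = 0.759) and TPI by 0.46 (adjusted p = 0.475). Without root control 3 the first 2 were 0.36 and -0.04, and without root Cd 2 TPI was 0.05. Among root arrays, LOC543954 was above background on root control 3 alone, and TPI on root Cd 2 alone.

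**Figure D5:**
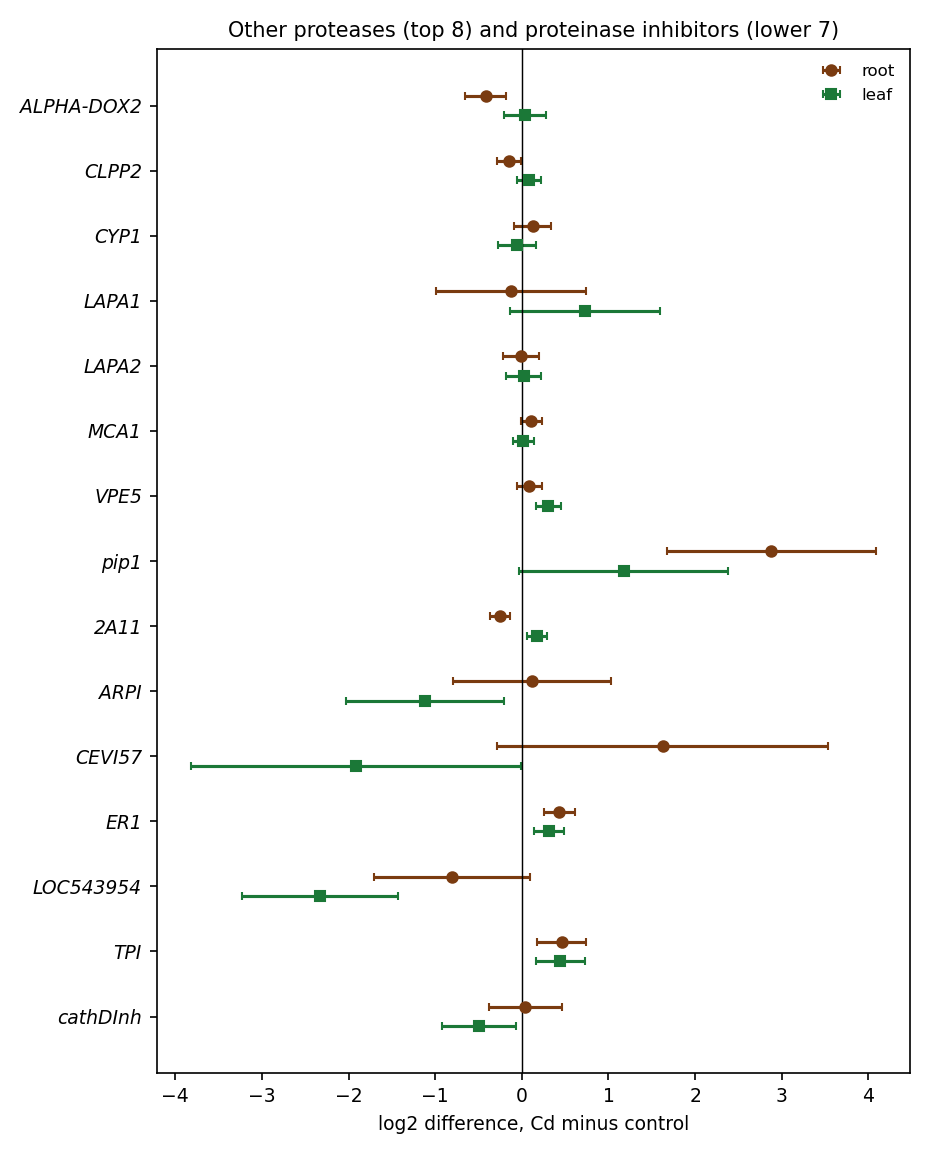
Log2 difference between Cd and control (horizontal axis) in root (brown circles) and leaf (green squares), with bars for the SE of the fit. The genes are the 8 of the other protease list, ALPHA-DOX2 among them, and the 7 of the proteinase inhibitor list. The widest bars are those of CEVI57, and none of the 15 genes passed in either organ.

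Among the other named genes, those most like each member were found by Pearson's r over the 12 arrays after taking off array medians. For SBT2 they were LOC543515 (synonym XYL2, a beta-xylosidase of the cell wall, r = 0.969), GP1 (synonym AroGP1, a polygalacturonase beta subunit, r = 0.957) and ERF4 (r = 0.947), an ethylene response factor. In leaf, these 3 differed by -0.64, -1.08 and -0.49 with Cd. For sbt3 they were Nramp2 (r = 0.882), a metal transporter of the NRAMP family, LAT61 (r = 0.857) and LOC544237 (r = 0.779). LAT61 differed by -1.57 in leaf and by -0.36 in root with Cd. These differences come from the arrays on which the genes were picked for likeness, and are given without a test. For sbt4a they were LOC543656 (r = 0.993), P69A (r = 0.983) and THM6 (r = 0.983). All arrays of an organ share a tissue, so for SBT2 and sbt4a these correlations mostly restate the distance between root and leaf. By Spearman's rho the 3 nearest genes were largely others: 1 of 3 was shared for SBT2, and 0 of 3 for sbt3 and for sbt4a.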

How the data were processed

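The authors deposited 1 log2 value for each probe set and array. MAS5 and RMA appear in the submitters' processing notes, with no version or order, and further steps are not given in the sources used here. Of 10209 probe sets, 171 controls were left out. Names come from the array's annotation (909 of 10038 probe sets have a symbol); the RefSeq gene table (SLM_r2.1) gave synonyms and gene order, and protein, promoter and probe sequences were not used here. For genes with several probe sets, the one with the highest mean was taken.

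A model of the 4 group means over all 12 arrays was fitted (limma 3.58.1, R 4.3.3; prior degrees of freedom 2.84, residual 8), with two-sided p-values adjusted over all probe sets by Benjamini-Hochberg, threshold 0.05. The organ contrast used values less each array's median. The fit was tested on simulated data with independent noise of the same spread on every array. Array weights here ran from 0.155 to 8.12, so that test does not cover arrays of unequal spread. Tables and figures used Python 3.11.15, pandas 2.3.3 and matplotlib 3.10.9. Alternatives were quantile normalization, median centring, a floor at background, a filter on dim probe sets, organs fitted alone, array weights, a replicate block and leaving out each array. Members and lists were chosen with earlier results of these data known. The text names all listed subtilases, in each other list the 3 genes farthest from 0 in each organ, and the 3 genes most like each member. Same-numbered Cd and control arrays were checked as pairs by correlating deviations from group means. The correlations were 0.35, 0.42 and 0.12 in leaf and 0.00, -0.26 and 0.06 in root. Arrays of different numbers were not correlated, so these values do not settle whether the arrays are pairs. The main model has no replicate block. The number of arrays limits the precision.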

Additional observations from a re-analysis of the deposited data

Results flagged for a closer look

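The sbt3 difference between Cd and control had opposite signs in the organs. The 3 root Cd arrays were above the root control mean by 0.32, 0.50 and 0.32. The 3 leaf Cd arrays differed from the leaf control mean by -0.71, -1.67 and -1.47. With groups that did not overlap in either organ, the sign could not differ between arrays of a group. The root difference was 0.38 (SE 0.23) and ranked 1169th from the highest. The leaf difference minus the root difference was -1.66. It was not tested, because the gene was grouped with these values known.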

How the results depend on the processing

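Each member's Cd difference in each organ stayed within 1 SD of its value under all alternatives run; for sbt4a in root that SD is widened by root Cd 2, without which 0.99 was 0.18. Leaving out single arrays took the leaf-minus-root difference of sbt4a from -0.99 to between -1.41 and -0.18, the latter without root Cd 2. Root minus leaf without Cd was -3.03 for SBT2, 0.016 for sbt3 (reversed from -0.57) and -7.25 for sbt4a as deposited, and -6.71 for sbt4a with values floored at background. The number of probe sets called was 304 in root, and 202 with root fitted alone, 3745 with array weights and 85 to 409 without single arrays. In leaf it was 379, and 65 with leaf fitted alone and 127 to 589 without single arrays. For the difference of Cd differences it was 76, and 705 with array weights and 26 to 160 without single arrays. Between organs it was 4343, and 6594 with array weights and 7118 as deposited. The causes were not tested. With the replicate block the counts were 421 in root and 376 in leaf, and it changed no call of the listed genes. Of those genes, ALPHA-DOX2 passed in root with array weights (adjusted p = 0.0363), a setting that called 3745 probe sets. Between organs P69B passed with array weights (adjusted p = 0.0111), where 6594 probe sets did, and without leaf control 2 (0.0260). TMP passed between organs as deposited (adjusted p = 0.00322), where 7118 probe sets did. TMP was at background on all 12 arrays. Its root minus leaf difference without Cd was 0.60 as deposited and 0.008 less array medians. Background correction could not be redone from probe set values. Values near background, SBT2 and sbt4a in root, limit folds there.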
